A study of Mus musculus with 32 samples.

Results

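Microglia that had refilled the spinal cord after depletion were compared with resident microglia in male mice without a fracture. The comparison used 5 of the 32 libraries of the study, chosen by their labels alone: the 2 male libraries labelled repopulated with no fracture and the 3 labelled resident with no fracture. RNA had been sequenced from microglia isolated by fluorescence-activated cell sorting, and all libraries carried the time label day 14, without a statement of what the days were counted from. The study crossed depletion with a fracture injury in 17 male and 15 female libraries, and its title places the cells in the spinal cord and ties them to the resolution of pain. All 5 libraries carried the genotype label Cx3Cr1-Cre;Rosa26-iDTR, in which Cre made by Cx3cr1-expressing cells switches on a receptor for diphtheria toxin. The treatment label was depletion for the repopulated libraries and no depletion for the resident ones. The descriptions named the resident libraries WT and the repopulated ones iDTR, although the genotype label was the same. The labels do not say whether the resident mice had received a Cre inducer or toxin, so that repopulation, toxin exposure and any difference in genotype cannot be told apart. Cx3cr1 is also expressed by some monocytes and by macrophages at the borders of the nervous system, and the sorting gate is not described in the labels. No label ties a library to an animal of its own, so the p-values speak only to variation among these libraries, part of which may be technical.

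Microglia are the resident macrophages of the brain and spinal cord, and in the healthy tissue they are marked by a set of surface receptors and enzymes that includes P2ry12 and Tmem119. When they are removed, surviving cells divide and refill the tissue, and cells from the blood can also enter it. Type I interferons act through factors that include Stat2 and Irf9 to raise a common set of antiviral genes, many of which carry a sequence called the interferon-stimulated response element in their promoters. Lysosomes are the compartments in which phagocytes digest what they have taken up.

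The 3 resident libraries held 25574427, 5722993 and 24537320 counts over 11999 genes, and the 2 repopulated libraries held 11987237 and 11810814. Levels are given as CPM, counts scaled to a common library size with TMM factors from edgeR. Pearson correlations of log2 CPM across genes were 0.929 to 0.942 within the groups and 0.89 to 0.923 between them. The cells were checked against 10 microglial markers, all of which were measured in all 5 libraries. Csf1r, the receptor on which microglial survival depends, stood at 11100, 11600 and 12800 CPM in the resident libraries and at 12900 and 11400 in the repopulated ones. The groups overlapped, and Csf1r did not pass the test (log2 fold change 0.04 ± 0.09, SE). Fold changes are given throughout as log2 of repopulated over resident, with the standard error of the fit.

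Repopulated microglia without fracture carried higher levels of interferon-response genes, major histocompatibility class I genes, chemokines and lysosomal genes, and lower levels of P2ry12 and several other markers of resting microglia. Of the 11999 genes tested, 890 (7.42%) passed the quasi-likelihood test of edgeR at a Benjamini-Hochberg adjusted p below 0.05, 564 higher (4.7%) and 326 lower (2.72%) in the repopulated libraries. Of these, 295 rose and 96 fell by more than 2-fold. When libraries were scaled by their totals alone, 442 genes were called higher and 501 lower, and the median log2 fold change of all genes was -0.12 in place of -0.028, so the balance of rises and falls depended on the scaling. For 4250 genes (35.4%) the 2 repopulated libraries did not overlap the 3 resident ones, 2041 above and 2209 below, and 889 of the 890 called genes were among them. The second repopulated library weighed most on the count: 414 genes were called without it. With 2 libraries against 3, an exact two-sided permutation test of a single gene cannot go below p = 0.2, so the calls rest on the spread that the fit shares across genes and groups.

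**Figure D1:**
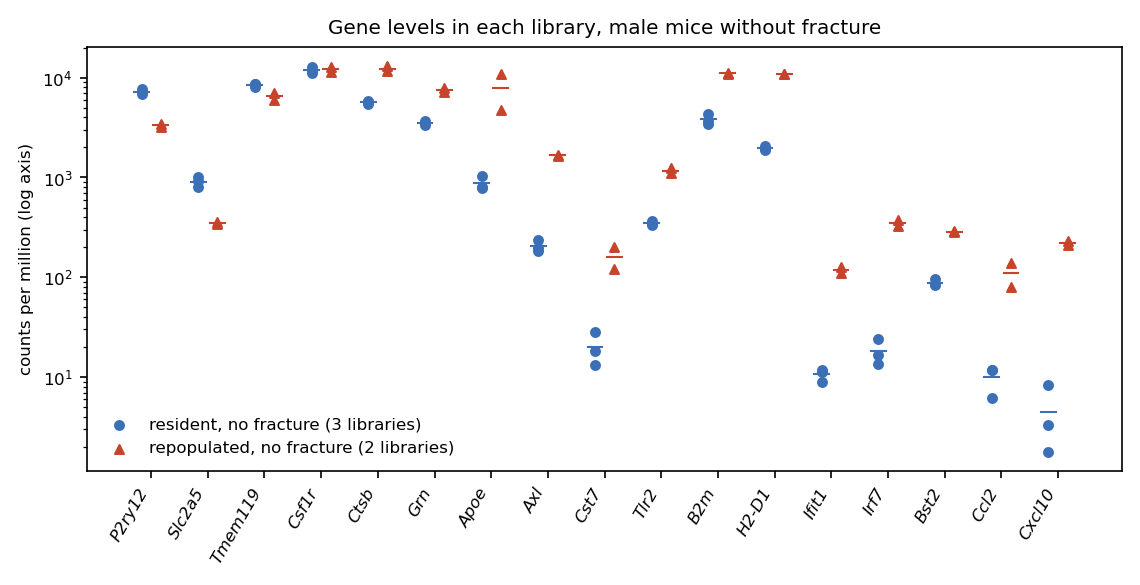
Levels of 17 genes in CPM on a log axis, with circles for the 3 resident libraries, triangles for the 2 repopulated libraries and lines for the group means. Csf1r overlapped between groups, P2ry12, Slc2a5 and Tmem119 were lower in both repopulated libraries, and Cxcl10 was at 1.78 to 8.4 in the resident libraries against 233 and 209.

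The interferon-response genes rose nearly as a block. Of 35 measured members of the list, 34 were called higher and none lower, with a median log2 fold change of 3.51, against 7.42% called and a median of -0.028 over all genes tested. All 35 lay above the resident libraries in both repopulated libraries. The exception to the calls was Mx2, at 0.677, 1.18 and 1.98 CPM in the resident libraries and 7.76 and 3.91 in the repopulated ones (2.18 ± 1.06). Called rises ran from 0.61 for Irf9 to 6.10 for Oas2.

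Effectors of the response were far apart between the groups. Ifit1, which binds foreign RNA ends, stood at 11.3, 8.9 and 11.7 CPM in the resident libraries and at 127 and 111 in the repopulated ones (log2 fold change 3.47 ± 0.44, edgeR adjusted p = 7.30e-05). Slfn5, a Schlafen family member, was at 2.11, 3.19 and 4.74 against 61.3 and 53 (4.08 ± 0.50, edgeR adjusted p = 3.83e-05). Bst2, which tethers budding viruses to the cell surface, was at 85.9, 96.9 and 82.9 against 284 and 291 (1.70 ± 0.21, edgeR adjusted p = 2.87e-05). In each of these genes the 2 repopulated libraries lay close together and far from the resident range. Oas1a, a sensor that makes oligoadenylates on double-stranded RNA, was at 11.1, 20 and 13.3 against 150 and 139 (3.33 ± 0.42, edgeR adjusted p = 9.32e-05). Ifitm3, which restricts viral entry, was at 29.9, 39.6 and 29 against 403 and 398 (3.63 ± 0.54). Cxcl10, a chemokine that attracts T cells, was at 3.35, 8.4 and 1.78 against 233 and 209 (5.88 ± 0.81, edgeR adjusted p = 0.000432). Single values for the Ifit and Oas genes are less certain than the list as a whole, since close paralogs can share reads.

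The signalling genes of the pathway moved by unequal amounts. Irf7, the factor that amplifies interferon production, was at 13.6, 24.3 and 16.8 CPM in the resident libraries and at 376 and 329 in the repopulated ones (4.31 ± 0.71, edgeR adjusted p = 0.00171). Stat2 was at 31.2, 37.8 and 30.7 against 185 and 114 (2.18 ± 0.42). Irf9, its partner in the complex that binds DNA, moved less, from 124, 126 and 119 to 188 and 188 (0.61 ± 0.17, edgeR adjusted p = 0.0278). Usp18, which switches the receptor's signal off, was at 20.3, 22.3 and 20.4 against 276 and 243 (3.64 ± 0.47, edgeR adjusted p = 0.000267). The RNA sensors Ddx58 (1.68 ± 0.36) and Ifih1 (2.03 ± 0.34) were also called higher. Leaving out each library in turn kept 29 of the 34 calls every time. The 5 that were lost at least once were Zbp1, Parp14, Ifi35, Mx1 and Irf9, and Irf9 was lost with any of the 5 libraries left out, with edgeR adjusted p up to 0.152 without the second repopulated library.

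Promoter sequences are shown for the 4 genes of the interferon and antigen-presentation lists with the smallest p among those that held the response element, since these genes carry the largest block of change. Each is the 250 bases before the RefSeq start (GRCm38.p6), 5′ to 3′ on the gene's own strand, with matches to GAAANNGAAA on either strand in capitals. The Bst2 and Ifit1 windows each hold 2 matches, and those of Bst2 overlap. B2m lies at chr2:122147437-122147686 (plus strand), Bst2 at chr8:71537473-71537722 (minus strand), Slfn5 at chr11:82951852-82952101 (plus strand) and Ifit1 at chr19:34640639-34640888 (plus strand).
B2m: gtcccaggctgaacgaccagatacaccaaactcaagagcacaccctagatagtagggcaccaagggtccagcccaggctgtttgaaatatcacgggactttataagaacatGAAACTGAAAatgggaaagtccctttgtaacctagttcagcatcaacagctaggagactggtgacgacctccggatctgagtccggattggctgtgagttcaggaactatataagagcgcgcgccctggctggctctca
Bst2: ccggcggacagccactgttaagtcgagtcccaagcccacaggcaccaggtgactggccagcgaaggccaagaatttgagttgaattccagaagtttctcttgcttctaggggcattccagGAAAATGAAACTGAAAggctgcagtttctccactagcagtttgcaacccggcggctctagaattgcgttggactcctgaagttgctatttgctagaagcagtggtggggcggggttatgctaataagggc
Slfn5: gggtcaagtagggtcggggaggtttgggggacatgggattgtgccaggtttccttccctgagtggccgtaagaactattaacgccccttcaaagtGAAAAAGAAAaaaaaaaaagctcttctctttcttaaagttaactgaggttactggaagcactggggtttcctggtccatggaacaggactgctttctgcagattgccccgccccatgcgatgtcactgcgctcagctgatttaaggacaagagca
Ifit1: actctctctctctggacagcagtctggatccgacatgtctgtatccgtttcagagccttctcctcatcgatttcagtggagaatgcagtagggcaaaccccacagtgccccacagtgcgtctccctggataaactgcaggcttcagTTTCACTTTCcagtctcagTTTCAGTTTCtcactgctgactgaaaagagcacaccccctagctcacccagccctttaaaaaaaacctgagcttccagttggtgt

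The letters GAAANNGAAA were searched on both strands of all RefSeq windows of 300 bases, from 250 before to 50 after each start, for the 8875 tested symbols that had one outside chromosome 18. A gene counted as matched if any of its windows held the letters. Of 25 interferon-list genes with a window, 16 (64%) held a match, against 348 of all 8875 genes (3.92%). The share was 15% among the 427 genes called higher and 3.09% among the 259 called lower. Among the 402 called higher that were not on the interferon list it was 11.9%. The shorter letters TTCNNNGAA were found in 8.43% of the genes called higher, 8.11% of those called lower and 8.25% of all, and in 5 of the 25 interferon-list genes (20%). These matches are descriptions of the windows, with motifs chosen after the gene calls were known.

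Genes of antigen presentation were also higher, most uniformly those of class I. Of 22 measured genes, 16 were called higher and 1 lower (77.3%, against 7.42% of all genes). The median log2 fold change was 1.79. B2m, the shared light chain of class I molecules, was at 4370, 3650 and 3410 CPM in the resident libraries and at 10900 and 11200 in the repopulated ones (1.54 ± 0.16, edgeR adjusted p = 8.07e-06). The heavy chain H2-D1 was at 1930, 2060 and 1900 against 10800 and 10900 (2.47 ± 0.27, edgeR adjusted p = 4.96e-05), and H2-K1 at 626, 644 and 577 against 3200 and 2970 (2.33 ± 0.28). H2-Q7, a class I gene of the Qa region, was at 19.9, 21.7 and 23.3 against 514 and 386 (4.38 ± 0.63), although reads of the H2 family can be shared between its members. The peptide transporter Tap1 was at 75.7, 93.2 and 87.9 against 297 and 293 (1.79 ± 0.32), and the immunoproteasome subunits Psmb8 (0.73 ± 0.14) and Psmb9 (0.96 ± 0.21) were also called. These class I genes all lay higher in both repopulated libraries than in any resident one.

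Class II genes were less uniform. Cd74, the invariant chain, was at 122, 112 and 156 CPM in the resident libraries and at 481 and 634 in the repopulated ones (2.09 ± 0.55, edgeR adjusted p = 0.0327), and its call was lost with any of the 5 libraries left out (edgeR adjusted p up to 0.199, without the second repopulated library). H2-Ab1 was called (1.79 ± 0.50), while H2-Aa, at 3.59, 5.71 and 13.6 against 33.9 and 66.1 (2.68 ± 0.90), and H2-Eb1 (2.43 ± 0.88) did not pass. H2-DMb1, a subunit of the peptide-loading chaperone, fell from 301, 258 and 261 to 191 and 205 (-0.46 ± 0.10). Without the second repopulated library, 10 antigen-presentation genes were called higher in place of 16.

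Chemokines that recruit monocytes and T cells were higher, and 2 members of the list were lower. Of 17 measured chemokine and receptor genes, 9 were called higher and 2 lower (64.7%, against 7.42% of all genes). The median log2 fold change was 1.73. Ccl2, the main monocyte attractant, was at 11.9, 11.9 and 6.2 CPM in the resident libraries and at 80 and 139 in the repopulated ones (3.48 ± 0.37, edgeR adjusted p = 1.07e-05). Its relative Ccl12 ran from 73 to 103 in the resident libraries against 617 and 1110 in the repopulated ones (3.23 ± 0.35, edgeR adjusted p = 5.08e-05). Ccl5, which attracts T cells and monocytes, was at 4.66, 9.57 and 7.27 against 314 and 286 (5.46 ± 0.97). For Ccl2 and Ccl12 the second repopulated library was the higher one, while Ccl5 was alike in both. Cxcl16, a membrane-bound chemokine, was at 145, 153 and 129 against 501 and 520 (1.85 ± 0.23). Ccl6 went the other way, from 362, 323 and 300 to 136 and 117 (-1.37 ± 0.16, edgeR adjusted p = 2.05e-05), as did the fractalkine receptor Cx3cr1. Ccl3 and Ccl4 were called (1.52 ± 0.41 and 1.73 ± 0.48), but each kept its call with only 1 of the 5 libraries left out.

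Inflammatory signalling genes were split between those that rose and the classical cytokines, most of which did not pass. Of 26 measured, 10 were called higher and 2 lower (46.2%, against 7.42% of all genes), with a median of 0.37. Tlr2, a receptor for bacterial lipoproteins, had the smallest p of all genes named here: it was at 341, 369 and 333 CPM in the resident libraries and at 1230 and 1110 in the repopulated ones (1.75 ± 0.16, edgeR adjusted p = 3.10e-06). Relb, a subunit of the non-canonical NF-kB dimer, was at 36.1, 39.8 and 37.5 against 75.8 and 79.5 (1.04 ± 0.17), and the adhesion molecule Icam1 at 315, 316 and 305 against 599 and 494 (0.81 ± 0.14). Il1b was low in all libraries, at 5.14, 3.86 and 5.14 against 22 and 15 (1.96 ± 0.47, edgeR adjusted p = 0.0114), and its call was lost without the first repopulated library (0.109). Il1rn, which blocks the receptor that Il1b acts on, was at 3.67, 0.336 and 2.13 against 23.4 and 21.2 (3.34 ± 0.77). Tnf, at 9.52, 6.05 and 4.74 against 16.8 and 7.73, and Il6, at 7.57, 8.9 and 5.85 against 6.23 and 4.91, overlapped between the groups. The lipopolysaccharide co-receptor Cd14 fell slightly (-0.36 ± 0.08), and Rela fell too (-0.47 ± 0.11). Without the first repopulated library 6 members were called higher in place of 10.

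Most genes of the disease-associated microglia list, which collects genes raised around plaques and damaged tissue, were higher. Of 23 measured, 16 were called higher and 1, Ccl6, lower (73.9%, against 7.42% of all genes). The median log2 fold change was 1.11. Apoe, the main lipid carrier of the nervous system, was at 800, 1030 and 793 CPM in the resident libraries and at 4740 and 10900 in the repopulated ones (3.16 ± 0.48, edgeR adjusted p = 0.0009). Axl, a receptor for dying cells, was at 184, 236 and 196 against 1640 and 1690 (3.02 ± 0.41), and Cst7, an inhibitor of lysosomal cysteine proteases, at 28.3, 13.3 and 18.3 against 122 and 199 (2.98 ± 0.36). The 2 repopulated libraries lay close together for Axl and stood far apart for Apoe. Itgax was at 10.4, 12.3 and 15.3 against 149 and 125 (3.43 ± 0.54), and Csf1, a ligand of Csf1r, at 25.8, 24.2 and 24.3 against 165 and 125 (2.55 ± 0.39). The receptor Trem2 and its adaptor Tyrobp, which switch on this program, did not pass: Trem2 was at 2280, 1890 and 1770 against 2000 and 2120 (0.06 ± 0.11), and Tyrobp at 1540, 1170 and 1020 against 1340 and 1670 (0.28 ± 0.15). Without the second repopulated library, which stood highest in Apoe and also in markers of macrophages of circulating origin such as Lyz2 (given below), 9 members were called higher in place of 16. The part of such cells in these values was not tested.

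Lysosomal genes rose by smaller steps and in one direction. Of 32 measured genes for lysosomes and phagocytosis, 20 were called higher and none lower (62.5%, against 7.42% of all genes). The median was 0.51. Ctsb, a cysteine cathepsin, was at 5880, 5700 and 5450 CPM in the resident libraries and at 11600 and 13000 in the repopulated ones (1.11 ± 0.14, edgeR adjusted p = 4.72e-05). Grn, the progranulin precursor needed for lysosome function, was at 3650, 3480 and 3390 against 7170 and 7940 (1.11 ± 0.13, edgeR adjusted p = 2.05e-05). Ctsd, the aspartic protease of the lysosome, was among the most abundant transcripts, at 26700, 21800 and 21000 against 33100 and 38900 (0.64 ± 0.13, edgeR adjusted p = 0.0041), and its call was lost without the second repopulated library (0.105). The membrane protein Lamp1 was at 1940, 1890 and 1860 against 2910 and 3060 (0.65 ± 0.08), the mannosidase Man2b1 at 1430, 1690 and 1560 against 2540 and 2810 (0.78 ± 0.09), and the cathepsin Ctsh at 1440, 1350 and 1390 against 2100 and 2210 (0.63 ± 0.07). Each of the 2 groups was tight for these genes, and the groups did not overlap. Cd68, often used as a phagocytosis marker, was at 1790, 1420 and 1190 against 1340 and 1680 (0.04 ± 0.16) and did not pass. Without the second repopulated library 12 lysosomal genes were called in place of 20.

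The lysosomal promoter element TCACGTGA was searched in the same windows. It was found in 5 of 26 lysosomal genes with a window (19.2%), in 2.34% of the genes called higher and in 2.39% of all. The 250 bases before the start are shown for the 2 called lysosomal genes with the smallest p that held it there, with the match in capitals: Ctsa, a carboxypeptidase, at chr2:164833523-164833772 (plus strand) and Ctsd at chr7:142387828-142388077 (minus strand). Ctsa was at 1780, 1830 and 1690 CPM in the resident libraries and at 2400 and 2670 in the repopulated ones (0.52 ± 0.08, edgeR adjusted p = 0.000468).
Ctsa: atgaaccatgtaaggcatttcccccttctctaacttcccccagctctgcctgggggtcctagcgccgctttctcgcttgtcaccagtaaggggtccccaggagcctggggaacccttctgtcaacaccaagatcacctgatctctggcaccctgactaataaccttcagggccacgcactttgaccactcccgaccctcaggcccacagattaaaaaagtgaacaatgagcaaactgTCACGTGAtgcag
Ctsd: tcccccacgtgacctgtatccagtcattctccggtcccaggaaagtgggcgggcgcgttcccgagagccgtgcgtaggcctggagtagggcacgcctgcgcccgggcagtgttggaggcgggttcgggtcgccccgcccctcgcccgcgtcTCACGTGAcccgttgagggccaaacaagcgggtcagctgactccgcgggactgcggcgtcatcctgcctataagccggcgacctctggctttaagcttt

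**Figure D2:**
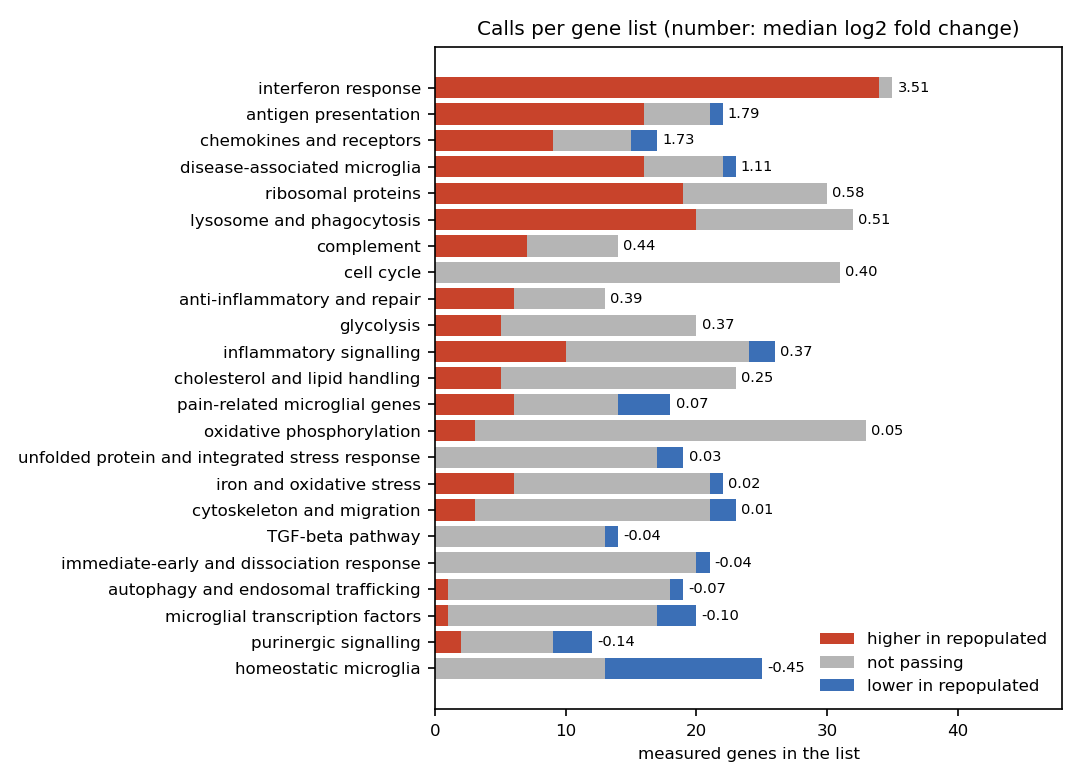
Number of measured genes of each of 23 lists that were called higher (red), called lower (blue) or did not pass (grey) in repopulated against resident microglia without fracture, with the list's median log2 fold change beside its bar. The interferon list has 34 of 35 genes called higher, the homeostatic list 12 of 25 called lower, and the cell cycle list no call.

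Markers of resting microglia fell as a group, but not all of them. Of 25 measured homeostatic genes, 12 were called lower and none higher (48%, against 7.42% of all genes). The median log2 fold change was -0.45. P2ry12, the ADP receptor that steers microglial processes, was at 6860, 7200 and 7650 CPM in the resident libraries and at 3450 and 3200 in the repopulated ones (-1.12 ± 0.15, edgeR adjusted p = 7.77e-05). P2ry13, a related receptor, was at 2520, 2410 and 2450 against 1270 and 1340 (-0.92 ± 0.13). The fructose transporter Slc2a5 was at 799, 919 and 1010 against 338 and 361 (-1.38 ± 0.20), and the crystallin Crybb1 at 153, 158 and 154 against 75.2 and 53.5 (-1.27 ± 0.19). The lysophosphatidylserine receptor Gpr34 was at 2420, 2600 and 2530 against 1490 and 1360 (-0.82 ± 0.13). These 5 genes stayed called with any of the 5 libraries left out. Tmem119, at 8600, 8150 and 8720 against 5980 and 6970 (-0.39 ± 0.11, edgeR adjusted p = 0.0305), and Cx3cr1, at 3900, 3280 and 4210 against 2610 and 2700 (-0.52 ± 0.13, edgeR adjusted p = 0.02), each kept the call with only 1 of the 5 libraries left out. Sparc, a matricellular protein, was at 5340, 4200 and 4010 against 4590 and 5530 and Siglech, a lectin, at 1340, 1250 and 1210 against 1200 and 1040, and neither passed.

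Most of the transcription factors that define microglia did not pass. Of 20 measured, 3 were called lower and 1 higher (20%, against 7.42% of all genes), with a median of -0.10. DESeq2 called 4 lower and 3 higher, and 7 had an unadjusted edgeR p below 0.05. Maf was at 330, 242 and 223 CPM in the resident libraries and at 137 and 150 in the repopulated ones (-0.89 ± 0.17, edgeR adjusted p = 0.00208). Fli1 (-0.47 ± 0.12) and Irf5 (-0.31 ± 0.09) were the others called lower, and without the third resident library 1 factor was called lower in place of 3. Spi1, the master regulator of the myeloid lineage, was at 508, 533 and 495 against 449 and 478 (-0.14 ± 0.08), and Irf8 at 1120, 1140 and 1090 against 1150 and 1150 (0.04 ± 0.08). Sall1, which maintains microglial identity, was at 373, 454 and 435 against 436 and 297 (-0.20 ± 0.13). Spi1, Irf8 and Sall1 did not pass.

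Genes that link microglia to pain moved in both directions. Of 18 measured, 6 were called higher and 4 lower (55.6%, against 7.42% of all genes). The median was 0.07 (-0.02 with library totals alone). P2rx4, the ATP-gated channel required for microglial signalling in nerve-injury pain, was at 151, 140 and 154 CPM in the resident libraries and at 323 and 354 in the repopulated ones (1.19 ± 0.13, edgeR adjusted p = 8.07e-06). Ctss, the cathepsin that releases fractalkine from neurons, was at 14600, 12200 and 11300 against 21000 and 22500 (0.77 ± 0.10). Tlr2, Ccl2, Itgax and Il1b, given above, were the other rises, and P2ry12, Cx3cr1, Irf5 and Ptgs1 the falls. P2rx7, the channel that triggers inflammasome activation, was at 279, 317 and 262 against 362 and 302 (0.22 ± 0.11) and did not pass. With either repopulated library left out, 1 of these genes was called lower in place of 4. Among 12 purinergic genes, the adenosine receptor Adora1 also rose, from 9.56, 3.19 and 5.65 to 51 and 20.9 (2.50 ± 0.44, edgeR adjusted p = 0.000926).

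Complement, lipid and iron genes held smaller groups of rises. Called shares of the 3 lists were 50%, 21.7% and 31.8%, against 7.42% of all genes. Of 14 complement genes, 7 were called higher and none lower, with a median of 0.44. C4b was at 5.66, 8.56 and 7.19 CPM in the resident libraries and at 258 and 147 in the repopulated ones (4.87 ± 0.93, edgeR adjusted p = 0.00467), and the integrin chain Itgb2 at 731, 822 and 805 against 1190 and 1290 (0.66 ± 0.08). C1qa, the first component, was at 5660, 5010 and 4830 against 5920 and 7470 (0.37 ± 0.11, edgeR adjusted p = 0.0434), and without the second repopulated library its adjusted p was 0.602. Complement calls fell from 7 to 3 without the third resident library and to 4 without the second repopulated one. Of 23 cholesterol and lipid genes, 5 were called higher, and they were genes of export and storage: Apoe, the efflux pumps Abca1 (1.28 ± 0.28) and Abcg1 (0.77 ± 0.19), the cholesterol hydroxylase Ch25h (2.86 ± 0.58) and the esterifying enzyme Soat1 (0.58 ± 0.14). The synthesis enzyme Sqle (-0.15 ± 0.44) did not pass, and 3 members of the list were called without either repopulated library in turn. Of 22 iron and oxidative stress genes, 6 rose and 1 fell, led by the ferritin chains Ftl1, at 3080, 2770 and 2480 against 4380 and 5510 (0.83 ± 0.11), and Fth1, at 2900, 2200 and 2020 against 4000 and 5030 (0.93 ± 0.14).

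Ribosomal protein genes were higher in the repopulated libraries. Called shares were 63.3% of the ribosomal list and 25% of the glycolysis list, against 7.42% of all genes. Of 30 measured on the list, 19 were called higher and none lower, with a median of 0.58, and all 30 fold changes were positive. The full set of 83 cytosolic ribosomal protein genes was less uniform. There 39 were called higher, none lower and 44 did not pass, with 80 positive and a median of 0.58. Rpl3 was at 160, 163 and 131 CPM in the resident libraries and at 258 and 282 in the repopulated ones (0.83 ± 0.12, edgeR adjusted p = 0.00016). The share of counts in ribosomal protein genes was 0.923%, 0.815% and 0.714% in the resident libraries and 1.04% and 1.15% in the repopulated ones. Calls ranged from 9 without the second repopulated library to 22 without the first resident one, and single ribosomal genes are uncertain where pseudogenes share their reads. Of 20 glycolysis genes 5 were called higher, including Pkm (0.76 ± 0.12) and the hypoxia factor Hif1a (1.01 ± 0.21), and 2 were called without the second repopulated library.

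Several programs showed few or no calls. The anti-inflammatory list (46.2% called) and the cytoskeleton list (21.7%), given last, stood above the 7.42% of all genes. None of 31 cell cycle genes was called by edgeR or by DESeq2, and 2 had an unadjusted p below 0.05. edgeR called 1 higher without the second resident library and 1 lower without the first repopulated one. Mki67, the proliferation marker, was at 5.1, 4.37 and 3.6 CPM in the resident libraries and at 1.62 and 8.45 in the repopulated ones (0.21 ± 1.13). Cdk1, the mitotic kinase, was at 5.46, 6.21 and 6.99 against 13.2 and 13.8 (1.12 ± 0.40) and did not pass, although the groups did not overlap. Of 21 immediate-early genes, which mark stress during cell isolation, only Jund was called, lower (-0.81 ± 0.23), with an edgeR adjusted p up to 0.182 when a library was left out. Of 33 oxidative phosphorylation genes 3 were called higher, mt-Co1, Cox6c and Cox4i1, with a median of 0.05 (-0.03 with library totals alone), and none without the second repopulated library. Of 14 TGF-beta pathway genes edgeR called only the co-receptor Eng, from 122, 118 and 141 to 81.4 and 70.1 (-0.75 ± 0.14), and the ligand Tgfb1 did not pass (-0.44 ± 0.14). DESeq2 called 3 genes of this list, and 6 had an unadjusted edgeR p below 0.05. Of 19 unfolded protein response genes, Dnajb9 and Xbp1 fell (-0.70 ± 0.17 and -0.50 ± 0.14), and of 19 autophagy genes Rab7b rose and Gabarapl2 fell. No unfolded protein response gene was called lower without the third resident library, and no autophagy gene was called higher with any library left out. Among 13 anti-inflammatory and repair genes 6 rose, including Socs1 (1.26 ± 0.33) and Hmox1 (0.78 ± 0.22), and 2 were called without the second repopulated or the third resident library. Of 23 cytoskeleton genes 3 rose and 2 fell, and without the second repopulated library none was called higher and 1 lower.

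Among the largest rises, most were immune genes with next to no counts in resident microglia. Every transcript in the table had 10 counts in 9 or more male libraries, and fewer than 9 of these were resident. A transcript found only in resident libraries could therefore not be in the table, while one found only in repopulated libraries could. The part of this filter in the balance of rises and falls was not tested. Adgrg5, an adhesion receptor, had no counts in the 3 resident libraries and was at 2.56 and 8.09 CPM in the repopulated ones, at least 100-fold higher against a floor of 3 counts over the resident group. Il12b, the p40 chain of interleukins 12 and 23, was at 0, 0.672 and 0.079 against 25.3 and 15.1 (7.13 ± 1.52, edgeR adjusted p = 0.00573). Cxcl13, which attracts B cells, was at 3.95, 2.18 and 1.46 against 105 and 152 (5.63 ± 1.01), and the activation antigen Cd69 at 1.2, 2.02 and 0.158 against 42.9 and 45.3 (5.54 ± 0.83). Atp10a, a phospholipid flippase, was at 0.399, 0.336 and 0.158 against 19.5 and 17.9 (5.98 ± 0.92, edgeR adjusted p = 0.000334). Resident levels in all of these were within a few CPM of 0. Cfb, complement factor B, was at 0, 2.35 and 0.988 against 130 and 117 (7.29 ± 1.82, edgeR adjusted p = 0.025), and its call was lost with any of the 5 libraries left out (edgeR adjusted p up to 0.0951, without the first resident library), as was that of Slfn1. Of the other rises among the 15 largest, Ifi205, Gbp6 and Chic1 kept their calls each time.

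The largest falls were of genes at modest levels. Most of the 15 largest lost their calls with at least 1 library left out. Khdrbs3, an RNA-binding protein, was at 58.2, 60.8 and 51.1 CPM in the resident libraries and at 5.8 and 2.09 in the repopulated ones (-3.83 ± 0.51, edgeR adjusted p = 6.74e-05). Tmem204, a membrane protein of cell junctions, was at 47.8, 65.2 and 64.5 against 6.14 and 6.45 (-3.23 ± 0.34, edgeR adjusted p = 8.07e-06), and the orphan receptor Gpr165 at 22, 29.4 and 45.8 against 2.9 and 1.45 (-3.89 ± 0.66). Nrarp, a feedback inhibitor of Notch, was at 14.7, 18.1 and 19.4 against 2.22 and 2.55 (-2.87 ± 0.56). These 4 kept their calls with any library left out. Pfkm, a phosphofructokinase, had no counts in the repopulated libraries and 8.85, 3.53 and 4.62 CPM in the resident ones, at least 42.9-fold lower, and without the second repopulated library its edgeR adjusted p was 0.05. Atad5, a replication factor, was likewise at 0 in both and at 7.05, 8.23 and 0.751 in the resident libraries, at least 40.5-fold lower, and was not called without either repopulated library. Both were represented by 1 listed transcript, and with fracture the repopulated libraries held a median of 3.59 CPM of Pfkm and 3.47 of Atad5. The adhesion molecule Pecam1 was at 23.9, 28.2 and 17.3 against 2.13 and 0.545 (-4.09 ± 1.08, edgeR adjusted p = 0.0255), with an adjusted p of 0.264 without the second repopulated library.

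Markers of other cells were followed through 13 lists. Of 16 measured markers of macrophages of circulating origin, 6 were called higher and none lower, with a median of 1.38. Fold changes were positive for 12 and negative for 4. In both repopulated libraries, 9 markers lay above all resident libraries and 4 lay below them. Over all 11999 genes tested 7.42% were called and 35.4% did not overlap, 2041 above and 2209 below. The summed level of the 16 was 1930 to 2220 CPM in the resident libraries and 3880 and 5310 in the repopulated ones. Lyz2, lysozyme, was at 397, 363 and 322 against 807 and 1620 (1.75 ± 0.38, edgeR adjusted p = 0.01), and Pilra, an inhibitory receptor, at 23.2, 28.5 and 23.2 against 86.2 and 208 (2.57 ± 0.48). Ms4a7 was at 0.558, 0 and 1.03 against 1.71 and 50.9 and Clec12a at 0.12, 0.504 and 0.474 against 0.853 and 19.6, high in the second repopulated library alone, and neither passed. Without that library 3 of these markers were called higher and 1 lower. The monocyte list had 4 of 10 genes in the table, none called by edgeR and 1 by DESeq2 (2 with an unadjusted p below 0.05), with a summed level of 2.65 to 11.9 CPM against 36.9 and 44.7, and its defining genes Ly6c2 and Ccr2 were not among the genes of the table. The part of such cells in the results given here was not tested. Fn1, on the monocyte list, had no counts in the resident libraries and 2.39 and 3.18 CPM in the repopulated ones, and did not pass. In bulk libraries a change in the number of cells of a type and a change in RNA per cell cannot be told apart.

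For several other cell types no marker was measured. None of the 12 T and NK cell, 5 oligodendrocyte precursor or 8 pericyte and fibroblast markers was in the table, in which every transcript reached 10 counts in 9 or more of the male libraries. Of 10 border macrophage markers 7 were measured, without Cd163, Lyve1 and Cbr2, and their sum was 203 to 222 CPM in the resident libraries and 135 and 224 in the repopulated ones. Among them the lectin Siglec1 rose from 1.12, 0.672 and 3.64 CPM to 25.5 and 20 (3.56 ± 0.73) and the scavenger receptor Stab1 fell from 196, 209 and 208 to 104 and 129 (-0.81 ± 0.16). Of 3 B cell markers, Ighm fell from 496, 460 and 421 to 317 and 290 (-0.60 ± 0.11), and of 5 astrocyte markers Glul fell (-0.65 ± 0.15). The endothelial markers Kdr, at 6.81, 7.22 and 0.356 against 35.5 and 19.9 (2.58 ± 0.69), and Pecam1 moved in opposite directions. Neither neuronal marker and none of the 6 oligodendrocyte markers was called by edgeR or DESeq2 or had an unadjusted p below 0.05. The neutrophil list had 1 of 11 genes in the table, Csf3r, which rose from 346, 422 and 427 to 590 and 540 (0.50 ± 0.12). Hemoglobin transcripts summed to 98.7 CPM in the third resident library and to at most 15.7 in the others.

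The same comparison in male mice with a fracture used 7 repopulated and 5 resident libraries, none of them shared. There 589 genes were called (4.91%), 364 higher and 225 lower, or 303 and 338 with library totals alone. Of the 564 genes called higher without fracture, 294 (52.1%) were also called higher with it, which is 80.8% of the 364 called there, and of the 326 called lower 122 (37.4%) were also called lower, 54.2% of 225. No gene was called in opposite directions. The interferon list had 31 of 35 genes called higher with fracture, with a median of 1.86 in place of 3.51, and 34 of the 35 fold changes were larger without fracture. Its mean log2(CPM + 1) was 3.59 to 4.01 in the resident and 6.74 to 6.97 in the repopulated libraries without fracture. With fracture it was 4.09 to 4.69 in the resident libraries and 4.93 to 6.96, median 5.85, in the repopulated ones. The resident libraries with and without fracture did not overlap in this level, while 2 of the 7 repopulated libraries with fracture lay within the range of the 2 without it.

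**Figure D3:**
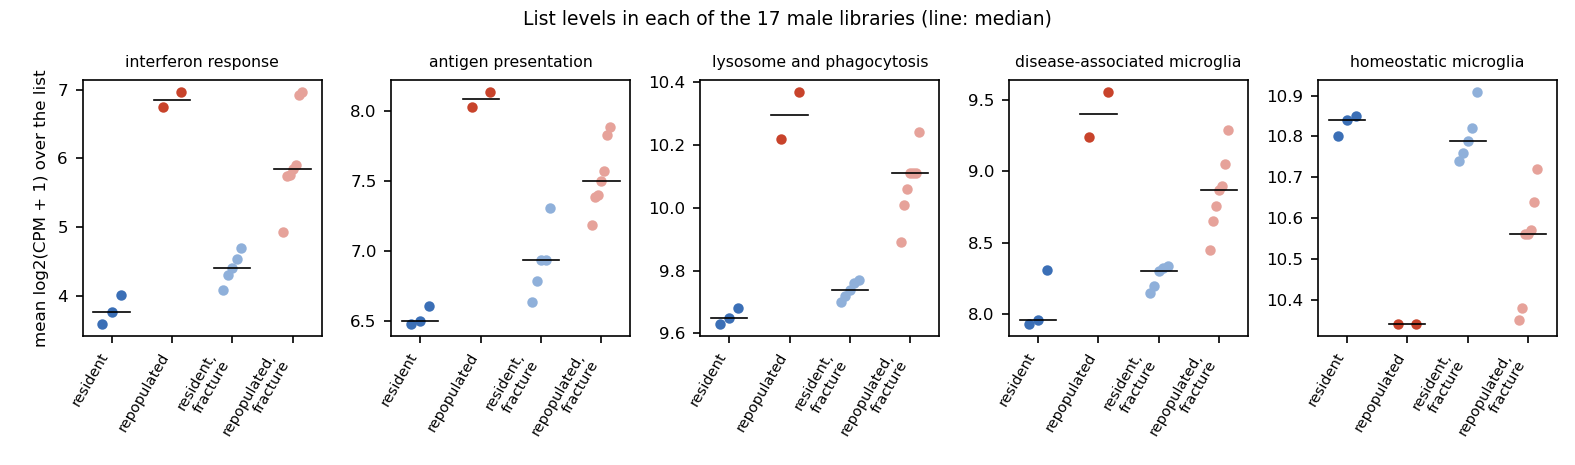
Mean log2(CPM + 1) over the measured genes of 5 lists in each of the 17 male libraries, grouped by depletion and fracture, with a line at each group's median. For the interferon list the 2 repopulated libraries without fracture lie at 6.74 and 6.97, above the 3 resident ones at 3.59 to 4.01, and the homeostatic list runs the other way.

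The difference between the comparisons with and without fracture was tested for every gene. It was called for 1 of 11999 genes (0.00833%), while 886 reached an unadjusted p below 0.05, and DESeq2 called 49, which did not include it. The gene was Bckdhb, a subunit of the enzyme that breaks down branched-chain amino acids (chr9:83925145-84124240, GRCm38, plus strand, protein coding). It was at 5.58, 3.19 and 2.25 CPM in the resident libraries without fracture and at 0 in both repopulated ones, at least 27.8-fold lower. With fracture it ran from 2.36 to 4.97 in the resident and from 1.37 to 8.61 in the repopulated libraries (0.48 ± 0.43). Its levels rested on 1 listed transcript, and the count of calls ran from 0 to 14 when single male libraries were left out, highest without the sixth repopulated library with fracture. No interferon gene was called in this test, and 21 of the 35 had an unadjusted p below 0.05, while DESeq2 called 2.

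Female mice without fracture gave 338 calls among 13377 genes (2.53%) from 3 repopulated and 4 resident libraries, and between 51 and 612 calls when single female libraries were left out, lowest without the first repopulated and highest without the third resident one. Of the 338, 209 were higher and 129 lower, or 116 and 228 with library totals alone. Of the genes called higher in males 108 (19.1%) were also called higher in females, 52.7% of the 205 called there and present in both tables, and of those called lower 49 (15.4%), 40.8% of 120. Again no gene was called in opposite directions. Lysosomal genes were called higher for 14 of 32 members and none lower in females, ribosomal genes for 23 of 30 and none lower, and homeostatic genes lower for 8 of 25 and higher for 2. The falls included P2ry12 (-0.75), Slc2a5 (-0.97) and Crybb1 (-0.89), and the rises were Sparc (0.33) and Trem2 (0.28). The interferon list had no call in females by edgeR or DESeq2 and 4 genes with an unadjusted p below 0.05, with a median of 0.45 and a mean level of 5.88 to 7.32 in resident and 7.18 to 7.42 in repopulated libraries. Levels in the female table cannot be set against the male ones, since the female libraries were made by another laboratory protocol and sex and protocol are the same split.

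In a joint fit of all 32 libraries the male and female effects differed for 48 of 11617 genes (0.413%), 39 of them with the higher male effect. The count was 14 without the first male resident and 13 without the second male repopulated library, and without the first male repopulated library 28 differences were higher in males and 34 lower. Among these were 12 of the 35 interferon genes, and the male effect was the larger for all 35, with a median difference of 2.94. DESeq2 called 27 of the 35, and edgeR called 1 when the first male resident or the second male repopulated library was left out. Of the chemokine list, 4 members differed: Cxcl10, Ccl2, Ccl12 and Ccl7. Ccl2 had a log2 fold change of 3.48 in males and 0.30 in females (difference 3.20 ± 0.56, edgeR adjusted p = 0.00949). No lysosomal, homeostatic, ribosomal or disease-associated gene was called in this test by edgeR, although 9, 2, 1 and 6 of them had an unadjusted p below 0.05, and DESeq2 called 3 of the disease-associated list. Cell cycle genes were lower in repopulated female microglia, with 5 called and a median of -1.39 against 0.40 in males, and DESeq2 called the difference for 3 of 31 and edgeR for none (16 with an unadjusted p below 0.05).

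**Figure D4:**
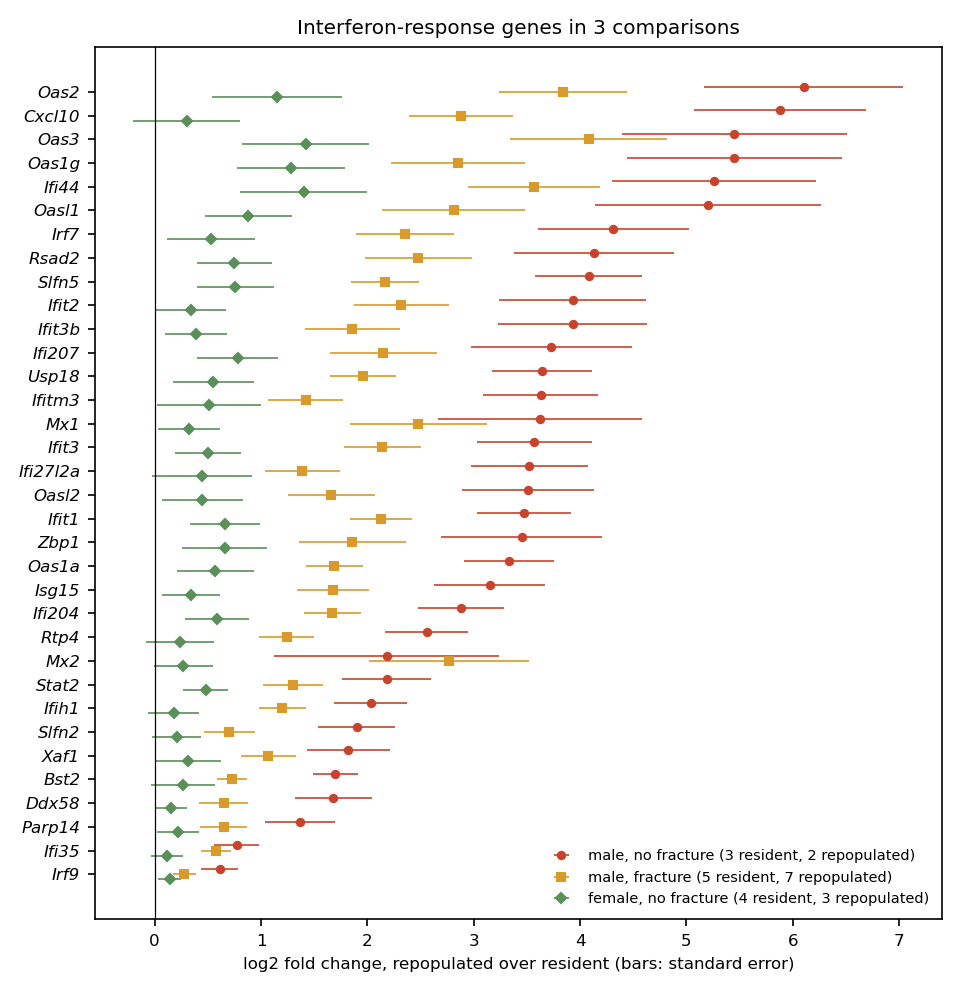
Log2 fold change of repopulated over resident microglia, with its standard error, for 34 interferon-response genes in males without fracture (circles), males with fracture (squares) and females without fracture (diamonds). In all but Mx2 the male value without fracture is the largest of the 3.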

How the data were processed

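RNA from sorted microglia was measured in 17 male and 15 female libraries. Per the labels' protocols, male RNA was prepared with RNeasy Plus Micro and SMART-Seq v4 kits, and the female libraries were made by a service laboratory with another kit. The authors deposited 1 table per sex of expected counts per transcript. The submitters' processing notes list Trim Galore 0.6.7, STAR 2.7.6a, RSEM 1.3.1 and the build GRCm38, without parameters. A score column, which matched the mean absolute deviation of each transcript over the libraries, deposited by the authors beside the counts, was not used. The male table held 28345 transcripts, each with at least 10 counts in at least 9 libraries.

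Transcripts were summed over 11999 gene IDs. All 17 male libraries were fitted in one model of 4 groups with edgeR 4.0.16 (R 4.3.3; TMM scaling, filterByExpr, robust quasi-likelihood F test, Benjamini-Hochberg adjusted p below 0.05), so that groups share the estimate of spread. The female table was fitted alike, and all 32 libraries together for the difference between sexes. The scripts were tested on simulated data. Totals of 5722993 to 25574427 counts limit the precision of low genes. Alternatives were DESeq2 1.42.0, limma 3.58.1 (voom), other scalings and filters, subsets of libraries, the replicate number as a block and leaving out each library. For samples sharing a replicate number across the 2 groups compared, the correlation of deviations was -0.00521 for number 1 and 0.0496 for number 2. With only 2 repopulated libraries their deviations mirror each other, so these are not 2 independent checks. The numbers were not taken as pairs in the main fit.

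The comparison and the 36 gene lists were chosen with earlier results of these data known. Genes were named by a rule: the 15 largest rises and 15 largest falls among calls whose groups did not overlap and whose higher mean reached 5 CPM, leaving out predicted genes and pseudogenes, up to 4 members per list by smallest p with called ones first, and a panel of known microglial genes. Further list members were named after their values were seen. Coordinates are from GENCODE for GRCm38, in which 11574 of 11999 gene IDs matched with their version (96.5%). Promoter windows are RefSeq's, GRCm38.p6. Some genes are not reported here.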

Additional observations from a re-analysis of the deposited data

Results flagged for a closer look

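In 14 genes named in the text the effect of repopulation without fracture differed between males and females by the test of the difference itself (edgeR, joint fit of 32 libraries), and sex and library protocol cannot be told apart there. Differences are log2, male minus female. The chemokine Cxcl10 differed by 5.53 ± 0.94 (edgeR adjusted p = 0.00949; 5.88 in males, 0.30 in females). Ccl2 differed by 3.20 ± 0.56 (edgeR adjusted p = 0.00949), Ccl7 by 5.00 ± 0.89 (edgeR adjusted p = 0.00949; 3.41 in males, -1.60 in females) and Ccl12 by 2.86 ± 0.44 (edgeR adjusted p = 0.00902). Irf7 differed by 3.75 ± 0.79 (edgeR adjusted p = 0.0333) and Usp18 by 3.07 ± 0.61 (edgeR adjusted p = 0.0255). Among antiviral genes, Slfn5 differed by 3.30 ± 0.65 (edgeR adjusted p = 0.022), Ifit1 by 2.80 ± 0.58 (edgeR adjusted p = 0.0257) and Oas1a by 2.74 ± 0.58 (edgeR adjusted p = 0.0333). Chic1, a cysteine-rich protein, differed by 5.39 ± 1.03 (edgeR adjusted p = 0.0185) and the activation antigen Cd69 by 5.01 ± 0.91 (edgeR adjusted p = 0.0129). Tlr2, which rose by 1.75 in males and 0.63 in females, differed by 1.10 ± 0.24 (edgeR adjusted p = 0.0333). Pdcd1 differed by 1.24 ± 0.29 (edgeR adjusted p = 0.0482). Glul, glutamine synthetase, went the other way, with -0.65 in males, 0.17 in females and a difference of -0.83 ± 0.18 (edgeR adjusted p = 0.0366).

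In males the effect on Bckdhb differed between mice without and with fracture by -9.29 ± 1.44 on the log2 scale (edgeR adjusted p = 0.0341). Both repopulated libraries without fracture had no counts of it, so the size of this fitted difference is no bound.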

How the results depend on the processing

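The 890 calls of the male comparison without fracture ranged from 414 (without the second repopulated library) to 722 when each of the 5 libraries was left out, and 286 (224 higher, 62 lower) were called every time. Of 117 called genes named by the rule, 67 were. The other settings gave 652 (the 5 libraries alone) to 1169 calls (DESeq2). With the replicate number as a block the calls were 761 without fracture, 293 in place of 589 with fracture, 57 in place of 1 for the difference between these and 143 in place of 338 in females. For that difference DESeq2 called 49, a filter of at least 5 CPM in 2 libraries 3, the male libraries numbered V64 to V79 alone 25, and leaving out single libraries 0 to 14. Those same libraries gave 80 calls with fracture in place of 589, from fewer samples. In females DESeq2 called 676, and leaving out single libraries gave 51 to 612. For the male minus female difference DESeq2 called 161 in place of 48, and leaving out single libraries gave 13 to 62. With library totals alone, 46.9% of the male calls without fracture were higher in place of 63.4%, and 33.7% of the female ones in place of 61.8%. Of the calls for the male minus female difference, 28 were higher and 34 lower without the first male repopulated library, in place of 39 and 9. No called fold change of a gene named by the rule changed sign in the alternatives run. Apart from the constructions named, the cause was not tested. With only 2 repopulated libraries used, and 5722993 counts in the shallowest resident one, a gene that did not pass is not shown to be unchanged.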

Other observations

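Some gene families that had no list of their own moved as well. They were chosen after their values were seen and are given as values. Over all genes tested, 7.42% were called. Of 13 interferon-inducible GTPases, which attack the membranes around intracellular pathogens, 7 were called higher and none lower, with a median log2 fold change of 1.62. Irgm1 was at 61.1, 73.9 and 88.3 CPM in the resident libraries and at 260 and 199 in the repopulated ones (1.62 ± 0.33), and Tgtp2 at 4.86, 8.23 and 12.2 against 117 and 97.5 (3.67 ± 0.66), with reads that close paralogs can share. Of 14 genes that make, inactivate or sense leukotrienes and prostanoids, 9 were called lower and 1 higher, with a median of -0.51. Hpgd, which inactivates prostaglandins, was at 603, 653 and 632 against 342 and 302 (-0.97 ± 0.11, edgeR adjusted p = 1.95e-05), and Alox5, the first enzyme of leukotriene synthesis, also fell (-1.13). The rise was Ptger4, a prostaglandin E2 receptor (3.27 ± 0.66).

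Receptors on the cell surface changed in both directions. Of 18 immune co-receptors 12 were called higher and 1, Vsir, lower. Cd72 was at 51.3, 51.6 and 39.7 CPM against 214 and 302 (2.45 ± 0.25, edgeR adjusted p = 8.07e-06), and Pdcd1, which encodes PD-1, at 36.4, 27 and 19.7 against 76.2 and 91.4 (1.59 ± 0.21). Of 4 receptor chains for GM-CSF and related cytokines 3 were called higher, Csf2ra, Csf2rb and Csf2rb2, with Csf2ra at 140, 143 and 118 against 246 and 309 (1.05 ± 0.13). Among 7 Fc receptors, Fcgr4, at 30.1, 17.3 and 19.9 against 73 and 80.2 (1.76 ± 0.25), and Fcgr1 (0.57) rose, while Fcgr3 (-0.40) and Fcrl1 (-0.87) fell. For every gene given here with its library values, the 2 repopulated libraries did not overlap the 3 resident ones. These genes were picked from the 890 called ones, of which only 1 overlapped. Of all genes tested, 35.4% did not overlap.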
